A study of Rattus norvegicus with 24 samples.

Results

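Astrocytes are the glial cells that take up neurotransmitter, buffer potassium and water and supply neurons with metabolites. The 7 genes described here mark them in the rat brain: Gfap, Aqp4, Slc1a2, Slc1a3, Glul, S100b and Gja1. They were chosen by Ensembl gene ID, under a rule that uses no measured value, and an ID was to be dropped if it was absent from a table or lay on another chromosome than expected. All 7 were kept, of 32552 genes listed. Their levels were followed in the nucleus accumbens (NAc), the part of the ventral striatum that receives dopamine input, and in the ventral tegmental area (VTA), the midbrain source of that input.

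Bulk RNA sequencing gave 24 libraries from 14 Sprague Dawley rats, male and female, of which 10 were sampled in both regions. In the NAc, 4 male and 4 female rats had received fentanyl, an opioid agonist, and 3 male and 3 female rats had received saline. In the VTA, the fentanyl groups held 3 males and 3 females, and the saline groups 2 males and 2 females. By its title the series concerns withdrawal from opioids and choice of fentanyl over food, and per the labels' protocols the brains were taken at the time of what would have been the last choice session. For route, dose, schedule and age the sources used here give nothing, and no transgene is named in any group. Tissue was punched on both sides of 1 mm coronal slices, with an internal diameter of 2.16 mm for the NAc and 1.19 mm for the VTA. A punch holds every cell type at the site, so fewer astrocytes and less RNA per astrocyte cannot be told apart in these libraries. The animal number names a rat within its group, and replicates were separate rats.

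Gfap encodes the intermediate filament of astrocytes, which rises when they become reactive and is low in many grey matter astrocytes. Aqp4 encodes the water channel of the endfeet on blood vessels, and Gja1 the main connexin of the gap junctions that join astrocytes into networks. Slc1a2 and Slc1a3 encode the main glial glutamate transporters, and Glul encodes glutamine synthetase, which turns the glutamate taken up into glutamine. S100b encodes a calcium-binding protein that is found in astrocytes and also in some oligodendrocytes. Glul is likewise found in some oligodendrocytes, and Gja1 in cells of the meninges and vessels. In opioid research these genes are followed because glutamate uptake in the NAc has been linked to drug seeking.

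Positions are those of the deposited tables; the sources used here give no build for them. The counted exons of Gfap (ENSRNOG00000002919) lie on chromosome 10 from 90990762 to 90999506, minus strand. Aqp4 (ENSRNOG00000016043) lies on chromosome 18 from 6765945 to 6782996, minus strand. Slc1a3 (ENSRNOG00000016163) lies on chromosome 2 from 57860834 to 57935363, minus strand. S100b (ENSRNOG00000001295) lies on chromosome 20 from 13130636 to 13142856, minus strand, and Gja1 (ENSRNOG00000000805) on the same chromosome from 37876650 to 37889089, plus strand. Glul (ENSRNOG00000049560) lies on chromosome 13 from 71331052 to 71340229, plus strand. Slc1a2 (ENSRNOG00000005479) lies on chromosome 3 from 92640752 to 92665644, plus strand. The counted Slc1a2 model spans 19.1% of the RefSeq gene and holds 882 nt of exons, so its counts cover a part of the transcript. The counted Glul model spans 13.9% of the RefSeq gene, which includes a start site far upstream, and holds 2485 nt of exons. The other models hold between 1484 nt (S100b) and 5419 nt (Aqp4) of exons. No other listed feature overlaps any of the 7 spans, and strand and chromosome matched RefSeq (GRCr8) for all 7.

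Upstream sequence is shown for the 3 genes the results turn on: Gja1, which had the largest called fentanyl difference, Glul, whose fentanyl call in the NAc held in all alternatives run as the mean over sexes, and Gfap, which had the largest region difference. Each run is the 250 bases before a RefSeq start site on GRCr8, a build that was not used for any value here, read 5′ to 3′ on the strand of the gene. Capitals mark matches to the letters searched on both strands: TTGGC for the nuclear factor I family, ACAAT for SOX factors, TTCNNNGAA for STAT factors, TGANTCA for AP-1 and the glucocorticoid response element. For Glul the downstream of its 2 RefSeq start sites is shown.
Gja1, chr20:36302314-36302563, plus strand: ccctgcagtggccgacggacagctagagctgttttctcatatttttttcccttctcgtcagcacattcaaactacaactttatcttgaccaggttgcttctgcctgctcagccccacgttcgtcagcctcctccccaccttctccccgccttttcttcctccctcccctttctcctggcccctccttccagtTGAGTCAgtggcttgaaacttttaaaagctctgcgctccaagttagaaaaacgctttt
Glul, chr13:68575816-68576065, plus strand: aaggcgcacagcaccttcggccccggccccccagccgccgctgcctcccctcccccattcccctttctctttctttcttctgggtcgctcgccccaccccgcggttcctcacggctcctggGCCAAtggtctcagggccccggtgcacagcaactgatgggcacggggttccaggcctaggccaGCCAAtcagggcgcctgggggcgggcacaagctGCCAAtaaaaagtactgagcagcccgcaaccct
Gfap, chr10:88361662-88361911, minus strand: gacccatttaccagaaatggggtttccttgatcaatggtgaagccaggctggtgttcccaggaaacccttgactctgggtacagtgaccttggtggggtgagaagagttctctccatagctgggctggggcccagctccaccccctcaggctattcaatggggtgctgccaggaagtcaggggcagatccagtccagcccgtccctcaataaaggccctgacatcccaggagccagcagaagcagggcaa
The Gja1 window held 1 AP-1 match, at position -58, and 6.36% of 27457 rat promoter windows of this length held one. The Glul window shown held 3 matches to the nuclear factor I letters, and the window of its upstream start site held none. These letters occurred at least once in 40.3% of the windows, taken as the first window of each gene. The Gfap window held no match to any of the 5 motifs, which says only that these letters are not in it. Windows of Slc1a2, Slc1a3 and S100b also held the nuclear factor I letters, and that of S100b the SOX letters, found in 29.6% of the windows. STAT letters (7.52% of windows) and the glucocorticoid response element (0.364%) were in no window of the 7 genes.

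Library totals were 3.46 M to 5.01 M counts in the NAc and 4.49 M to 6.30 M in the VTA. Together the 7 genes accounted for 0.378% to 0.500% of an NAc library and for 0.371% to 0.675% of a VTA library, and the lowest count of any of them in any library was 254 (Gfap). All 7 passed the low-count filter in every comparison. In all 24 libraries the count of Y-linked features fitted the sex on the label. Markers of neurons, oligodendrocytes, microglia and of the 2 regions were not analysed here, because the tables carry Ensembl IDs with no symbols; the labelled tissue was therefore not checked against its markers. Levels are given as CPM, each count divided by its library's TMM-scaled total, with the factors taken over all 24 libraries. Log2 fold changes are given ± their standard error from edgeR's quasi-likelihood test, and a gene is called at a Benjamini-Hochberg adjusted p under 0.05 over all genes tested. Statements that ranges of groups did or did not overlap describe the libraries and are no test. The share of all genes without overlap was not counted, so a lack of overlap does not by itself mark a gene.

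Per kilobase of counted exon, the scale on which genes can be set side by side, Gja1 had the highest mean level of the 7 in the NAc, at 399 ± 78.6 CPM per kb (SD, n = 14). Glul (328 ± 63.7), Slc1a2 (317 ± 33.5) and S100b (300 ± 31.9) followed, and their ranges overlapped. Slc1a3 (181 ± 22.7) lay below S100b in 14 of 14 libraries with no overlap of the ranges, and Aqp4 (151 ± 28.3) overlapped Slc1a3. Gfap was lowest, at 33.5 ± 9.74 CPM per kb, below the range of every other member. In the VTA the order was S100b (457 ± 63.3, n = 10), Glul (410 ± 73.1), Gja1 (255 ± 59.0), Aqp4 (191 ± 64.9), Slc1a2 (174 ± 28.9), Slc1a3 (99.3 ± 21.4) and Gfap (83.1 ± 42.5 CPM per kb). There the range of every gene overlapped that of its neighbour in the order. The place of Slc1a2 in both orders rests on its partial gene model.

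**Figure D1:**
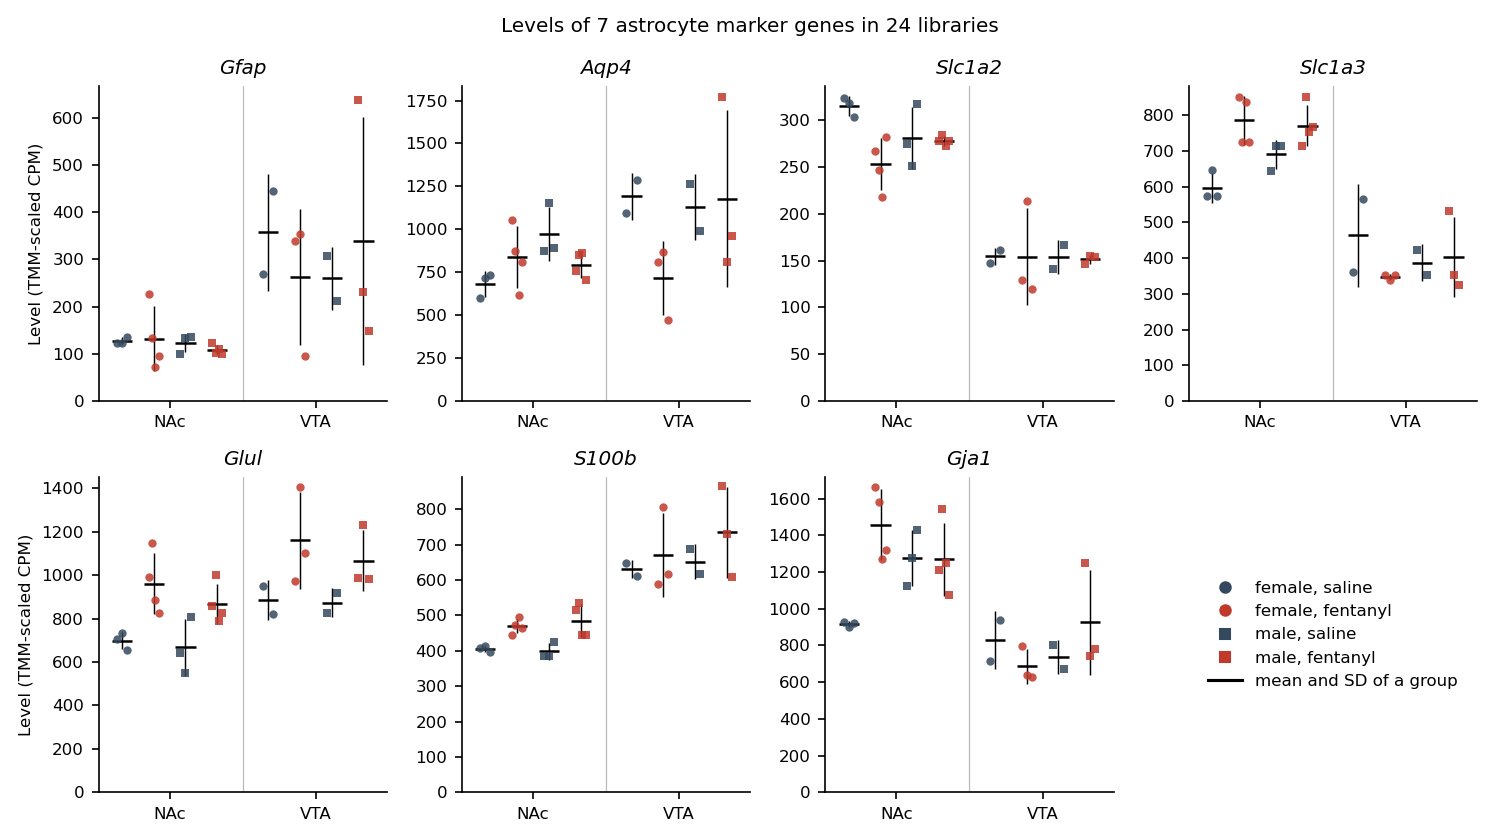
Level of each gene in every library (TMM-scaled CPM, linear axes from 0), split into NAc and VTA, with saline in dark blue, fentanyl in red, circles for females and squares for males, and bars at the mean and SD of each group. Gfap and S100b sit higher in the VTA, Slc1a2 and Slc1a3 sit lower there, and the 3 saline females of the NAc sit below the 4 fentanyl females for Gja1, Slc1a3, Glul and S100b.

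The first comparison asked how the levels differ between the regions within the same rats. The astrocyte genes did not move together: in the VTA Gfap, S100b and Glul were higher than in the NAc, and Slc1a2, Slc1a3 and Gja1 were lower. Aqp4 was called higher in the VTA, but it lay higher there in 5 of 10 rats and lower in 5. All 7 of 7 were called, in a comparison in which 62.3% of the 14795 genes tested were called, 31.7% higher and 30.6% lower in the VTA. Their log2 differences ran from -0.84 (Slc1a3) to 1.21 (Gfap). The median was 0.31, the value of Aqp4, against 0.02 over all genes tested. Being called is therefore no mark of these genes, and their sizes and directions are given gene by gene. Punch diameter went with region, and the 2 cannot be told apart. S100b and Glul are also found in some oligodendrocytes, whose share of each punch was not tested.

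Gfap, the filament gene, showed the largest difference. Its level was 71.2 to 228 CPM in the 14 NAc libraries (median 123) and 96.2 to 639 CPM in the 10 VTA libraries (median 289). The ranges overlapped, but Gfap was higher in the VTA in 10 of 10 rats, with log2 ratios from 0.43 to 2.38. The fitted log2 difference was 1.21 ± 0.22, a 2.31-fold higher level (95% interval 1.60 to 3.33), with an adjusted p of 0.00229 by edgeR. S100b, the calcium-binding protein gene, was at 384 to 536 CPM in the NAc (median 445) and at 588 to 865 CPM in the VTA (median 633). Its ranges did not overlap. S100b was higher in 10 of 10 rats, by 0.62 ± 0.07 on the log2 scale (1.53-fold, adjusted p 3.69e-07, edgeR).

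Both glutamate transporters were lower in the VTA. Slc1a2 was at 218 to 323 CPM in the NAc (median 278) and at 119 to 214 CPM in the VTA (median 151), so that the highest VTA library lay just under the lowest NAc library. Slc1a3 was at 573 to 852 CPM in the NAc (median 721) and at 325 to 566 CPM in the VTA (median 353), again with no overlap. Each was lower in 10 of 10 rats. The log2 difference was -0.84 ± 0.08 for Slc1a2 (adjusted p 6.01e-08) and -0.84 ± 0.09 for Slc1a3 (adjusted p 2.80e-07, edgeR), a 1.79-fold lower level for either gene.

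Glul, which handles the glutamate these transporters bring in, differed the other way. It was at 549 to 1146 CPM in the NAc (median 817) and at 819 to 1406 CPM in the VTA (median 977), with overlapping ranges. Glul was higher in the VTA in 9 of 10 rats, by 0.34 ± 0.07 on the log2 scale (1.27-fold, adjusted p 0.000281, edgeR). Gja1, the connexin gene, was at 900 to 1661 CPM in the NAc (median 1259) and at 627 to 1251 CPM in the VTA (median 762). It was lower in the VTA in 8 of 10 rats, by a log2 difference of -0.63 ± 0.10 (1.54-fold lower, adjusted p 4.04e-05, edgeR).

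Aqp4, the water channel gene, had the weakest call. Its level was 597 to 1154 CPM in the NAc (median 828.7) and 472 to 1770 CPM in the VTA (median 976), and it was higher in the VTA in 5 of 10 rats and lower in 5. The fitted log2 difference was 0.31 ± 0.12 with an adjusted p of 0.0460 by edgeR. The call was lost by limma voom (adjusted p 0.0749), without the rat block (0.0764) and when any 1 of 6 rats was left out. Those were fentanyl females 1, 2 and 7, saline females 1 and 2, and saline male 1. The adjusted p ran from 8.14e-06 to 0.143 over the 17 alternatives.

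**Figure D2:**
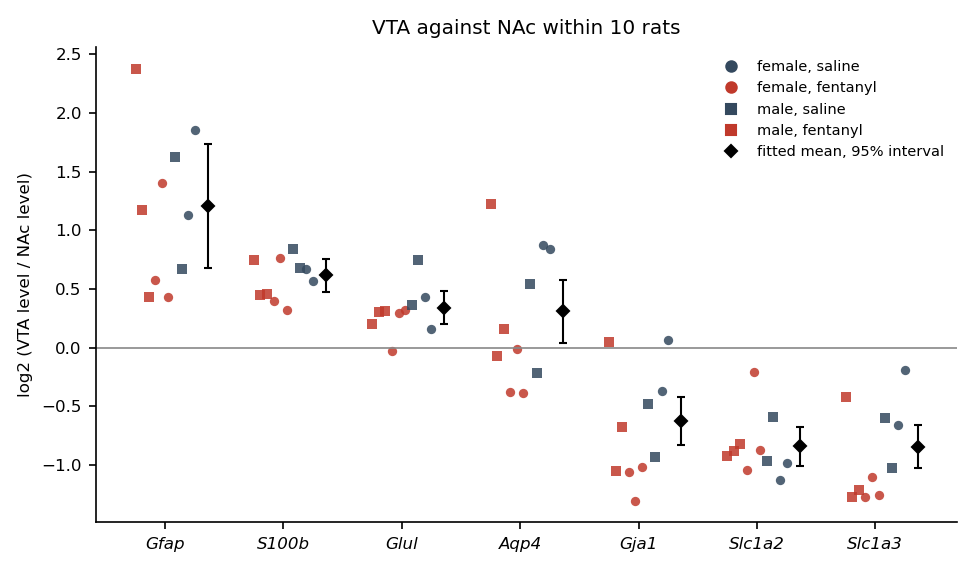
Log2 ratio of the VTA level to the NAc level in each of the 10 rats with both libraries (circles females, squares males, dark blue saline, red fentanyl), with the fitted mean over the 4 groups and its 95% interval as a black diamond. Every rat lies above 0 for Gfap and S100b and below 0 for Slc1a2 and Slc1a3, and the rats fall on both sides of 0 for Aqp4.

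The region differences were taken again in saline and fentanyl rats apart. In saline rats (4 rats) all 7 genes were called, where 45.1% of genes were. In fentanyl rats (6 rats) 6 were called, where 54% of genes were; the exception was Aqp4, at 0.10 ± 0.16 (adjusted p 0.602, edgeR) against 0.51 ± 0.19 in saline rats (adjusted p 0.0455). For Gfap the log2 difference was 1.32 ± 0.34 in saline rats and 1.09 ± 0.28 in fentanyl rats. For Slc1a3 it was -0.61 ± 0.13 and -1.07 ± 0.11. The difference between these differences was tested itself, and 0 of 7 members were called, with 0 of 14795 genes (0%) called by edgeR. At an unadjusted p under 0.05 there were 840 genes (5.68%), and DESeq2 called 1. Slc1a3 was the 1 member with an unadjusted p under 0.05, at -0.46 ± 0.17 (adjusted p 0.806). The interval for Gfap, -1.27 to 0.81 on the log2 scale, leaves room for a difference of more than 2-fold. The Aqp4 call in saline rats was the least firm, lost in 9 of 17 alternatives. It was lost by voom (0.0762), without the rat block (0.101) and without any 1 of 7 rats: saline females 1 and 2, saline male 1, fentanyl females 1, 2 and 7 and fentanyl male 3 (up to 0.221). Other calls in saline rats also rested on 1 rat. Gfap was lost without saline female 2 (adjusted p 0.0921) or saline male 1 (0.0837). Gja1 was lost there without saline female 1 (0.187) or saline male 3 (0.204), and Glul without saline male 3 (0.0568). In fentanyl rats Gfap was lost without female 2 (0.0535), and Glul without female 2 (0.0710), female 7 (0.0801) or male 2 (0.0621).

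The sum of the 7 levels per kb was 1710 ± 173 CPM per kb in the NAc (1486 to 2004) and 1669 ± 228 in the VTA (1397 to 2181). Without Slc1a2, whose counted model is partial, it was 1393 ± 186 in the NAc and 1495 ± 217 in the VTA, so the order of the regions turned; the ranges overlapped either way. Gfap took 1.96% of the sum in the NAc and 4.81% in the VTA, S100b 17.6% and 27.4%, and Glul 19.1% and 24.8%. Aqp4 took 8.88% and 11.3%. Gja1 went from 23.2% to 15.2%, Slc1a2 from 18.8% to 10.5% and Slc1a3 from 10.6% to 5.96%. These sums and shares are a description and were not tested.

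**Figure D3:**
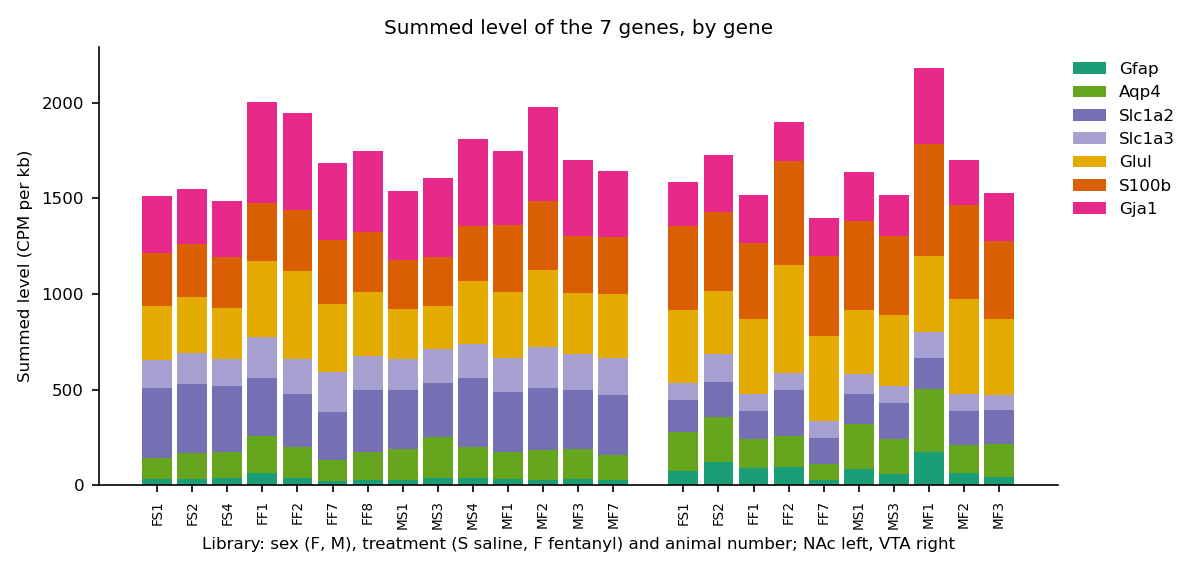
Stacked bars of the level per kb of each gene in each library (CPM per kb, axis from 0), NAc on the left and VTA on the right, named by sex, treatment and animal number. The totals lie between 1486 and 2004 in the NAc and between 1397 and 2181 in the VTA, with more Gfap and S100b and less Gja1, Slc1a2 and Slc1a3 in the VTA bars.

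The second comparison was fentanyl against saline in the NAc, and in females the gap junction gene, a glutamate transporter and glutamine synthetase were higher after fentanyl. Of the 7 genes, Gja1, Glul and Slc1a3 rose, Slc1a2 fell, and Aqp4, S100b and Gfap did not pass the test. Among all 13248 genes tested 13.5% were called, 8.05% higher and 5.45% lower. The members' log2 fold changes ran from -0.30 (Slc1a2) to 0.68 (Gja1). Their median was 0.31, the value of Aqp4, against -0.00012 over all genes.

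Gja1 showed the largest change. It was at 929, 900 and 920 CPM in saline females 1, 2 and 4, and at 1661, 1579, 1269 and 1321 CPM in fentanyl females 1, 2, 7 and 8. Every fentanyl library lay above every saline library, and the saline libraries lay close together. The log2 fold change was 0.68 ± 0.12, or 1.60-fold (95% interval 1.34 to 1.91), with an adjusted p of 0.00129 by edgeR. The call held in all alternatives run, with an adjusted p of at most 0.0106.

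Slc1a3, the glutamate transporter, was at 573, 646 and 573 CPM in saline females and at 852, 727, 837 and 727 CPM in fentanyl females, with no overlap. It rose by 0.40 ± 0.10 on the log2 scale (1.32-fold, adjusted p 0.00927, edgeR). Glul was at 705, 732 and 657 CPM in saline females and at 991, 1146, 883 and 825 CPM in fentanyl females, also with no overlap. Its log2 fold change was 0.47 ± 0.13 (1.39-fold, adjusted p 0.0170, edgeR). Both calls were lost when saline female 1 or saline female 4 was left out. The adjusted p was then 0.0562 and 0.0541 for Slc1a3, and 0.0609 and 0.0839 for Glul.

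Slc1a2, the other glutamate transporter, went the other way. It was at 323, 318 and 303 CPM in saline females and at 267, 246, 218 and 282 CPM in fentanyl females, so that every fentanyl library lay below every saline library. The log2 fold change was -0.30 ± 0.10 (1.23-fold lower) with an adjusted p of 0.0402 by edgeR. This call was the least firm of the 4. It was lost in a fit of the 2 female groups (0.0981) and without any 1 of 8 libraries: saline females 1, 2 and 4, fentanyl females 2 and 7, fentanyl males 1 and 7 and saline male 1. Without saline female 1 or 4, Gja1 was the only member of the 7 still called.

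The other 3 genes were not called in NAc females. S100b was at 409, 413 and 396 CPM in saline and at 446, 474, 494 and 464 CPM in fentanyl females, with no overlap, and differed by 0.22 ± 0.09 on the log2 scale (adjusted p 0.116, edgeR). Aqp4 was at 597, 718 and 734 CPM in saline and at 1055, 876, 619 and 809 CPM in fentanyl females, and differed by 0.31 ± 0.14 (adjusted p 0.163). Gfap was at 123, 123 and 136 CPM in saline and at 228, 134, 71.2 and 96.3 CPM in fentanyl females. The fentanyl libraries thus lay on both sides of the saline libraries, and the fitted difference was 0.05 ± 0.30 (interval -0.62 to 0.72).

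Mitochondrial features took 31.6 ± 3.54% of the counts in fentanyl females of the NAc (29.2% to 36.7%) and 24.4 ± 2.12% in saline females (22.1% to 26.1%), and fentanyl female 1 had a TMM factor of 0.783. With mitochondrial features left out, 3 members were called higher and 1 lower in females, as with them, beside 1785 genes called against 1788. Without fentanyl female 1 the member counts were the same. Whether the calls go with the mitochondrial share of a library was not tested.

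In NAc males 0 of 7 members were called, with 0% of 13248 genes called by edgeR, 850 genes (6.42%) at an unadjusted p under 0.05 and 6 genes called by DESeq2. Glul was at 643, 549 and 809 CPM in saline males 1, 3 and 4, and at 857, 998, 790 and 827 CPM in fentanyl males 1, 2, 3 and 7. All but 1 of the fentanyl libraries lay above the highest saline library, and the log2 fold change was 0.39 ± 0.13 (unadjusted p 0.00614, adjusted p 0.571, edgeR). S100b was at 384, 385 and 425 CPM in saline and at 515, 536, 444 and 446 CPM in fentanyl males, with no overlap, and its log2 fold change was 0.29 ± 0.09 (adjusted p 0.571). Gja1 was at 1122, 1278 and 1429 CPM in saline and at 1210, 1542, 1248 and 1074 CPM in fentanyl males. These ranges overlapped, and the fitted difference was -0.0014 ± 0.12 (interval -0.25 to 0.25). Aqp4 was at 871, 1154 and 889 CPM in saline and at 757, 849, 860 and 705 CPM in fentanyl males, every fentanyl library below every saline library. It differed by -0.29 ± 0.14, Slc1a3 by 0.17 ± 0.10, Slc1a2 by -0.01 ± 0.10 and Gfap by -0.17 ± 0.31, with adjusted p from 0.786 to 0.994 by edgeR.

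**Figure D4:**
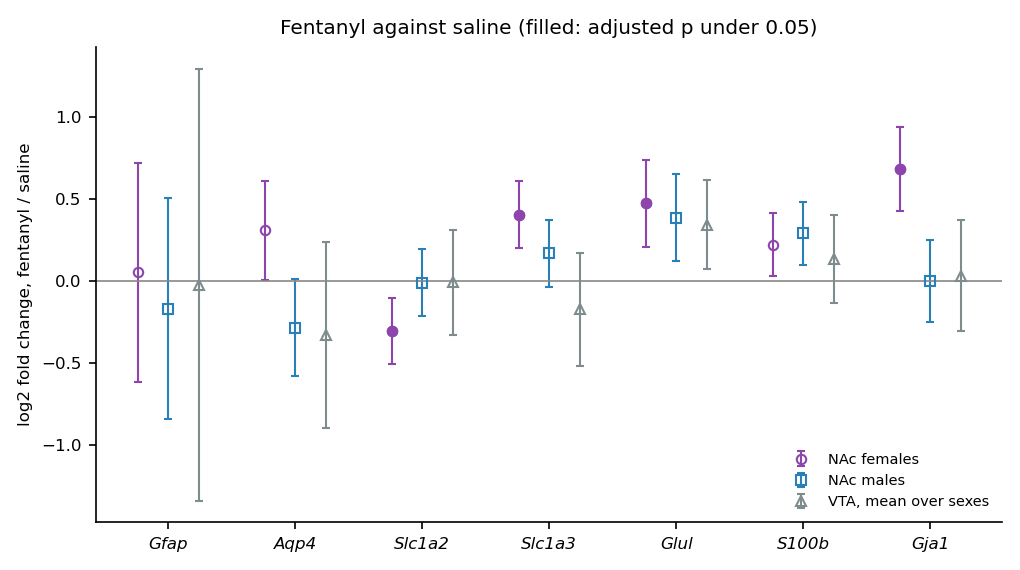
Log2 fold change, fentanyl over saline, of each gene with its 95% interval in NAc females (circles), NAc males (squares) and as the mean over sexes in the VTA (triangles); filled symbols have an adjusted p under 0.05. Filled symbols occur for Slc1a2, Slc1a3, Glul and Gja1 in NAc females, the Gja1 interval in males spans 0, and the VTA intervals of Gfap are the widest.

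As the mean over both sexes in the NAc, Glul (0.43 ± 0.09, adjusted p 0.00808), Gja1 (0.34 ± 0.09, 0.0204), Slc1a3 (0.29 ± 0.07, 0.0162) and S100b (0.26 ± 0.07, 0.0208, edgeR) were called higher. By sex, Gja1 differed by 0.68 in females and -0.0014 in males, and Slc1a3 by 0.40 and 0.17. Glul differed by 0.47 and 0.39, and S100b by 0.22 and 0.29, in the same order. These 4 of 7 members stand beside 7.51% of all genes, 4.52% higher and 2.99% lower. S100b was at 384 to 425 CPM in the 6 saline rats and at 444 to 536 CPM in the 8 fentanyl rats, with no overlap. The call of Glul held in all alternatives run. Each of the calls of Gja1 and S100b was lost without fentanyl male 2, saline male 1, saline female 1 or saline female 4, and that of Slc1a3 without any of the 3 saline rats named. The adjusted p was then 0.0509 to 0.0708. Slc1a2 (-0.16 ± 0.07, adjusted p 0.161), Aqp4 (0.01 ± 0.10) and Gfap (-0.06 ± 0.22) did not pass.

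Whether the fentanyl effect in the NAc differed between the sexes was tested directly, and 0 of 7 members were called, beside 0.77% of genes. At an unadjusted p under 0.05 there were 3 members, beside 14.1% of genes. DESeq2 called 1 member, beside 260 genes against 102 in the main fit. Gja1 came closest, with a female effect 0.68 ± 0.17 above the male effect on the log2 scale (interval 0.32 to 1.04, adjusted p 0.0561, edgeR). In 13 of 20 alternatives Gja1 was not called, limma voom among them, with an adjusted p of up to 0.189. DESeq2 gave it an adjusted p of 0.0104, and edgeR on unfiltered genes 0.000483. The unfiltered fit called 388 genes against 102 in the main fit. It was also called when fentanyl male 2, fentanyl female 7, fentanyl female 8 or saline male 1 was left out. For Aqp4 the difference was 0.59 ± 0.20 (adjusted p 0.173), and for Glul, with effects of 0.47 in females and 0.39 in males, it was 0.09 ± 0.18 (interval -0.29 to 0.46).

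The saline groups entered these differences. Gja1 was lower in saline females (900 to 929 CPM) than in saline males (1122 to 1429 CPM), with no overlap, and the log2 difference was -0.48 ± 0.13 (adjusted p 0.130, edgeR). Aqp4 was also lower in saline females (597 to 734 CPM) than in saline males (871 to 1154 CPM), by a log2 difference of -0.51 ± 0.15 (adjusted p 0.192). Neither was called, nor was any other member, beside 0.377% of genes. The Gja1 levels of fentanyl females, 1269 to 1661 CPM, overlapped those of both male groups.

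In the VTA no fentanyl difference was called for any member. Of 14400 genes, 0% were called by edgeR in females, in males, as the mean over sexes and for the difference between the sexes. The genes at an unadjusted p under 0.05 were 1098, 648, 1271 and 476, and DESeq2 called 37, 7, 39 and 1. Glul was at 949 and 819 CPM in saline females and 827 and 920 CPM in saline males. It was at 972, 1406 and 1103 CPM in fentanyl females and at 988, 1231 and 982 CPM in fentanyl males. The lowest of the 6 fentanyl libraries lay above the highest of the 4 saline libraries. How many of all genes separated in this way was not counted. The log2 fold change of Glul as the mean over sexes was 0.34 ± 0.13 (unadjusted p 0.0166, adjusted p 0.481, edgeR). Its size in the NAc was 0.43 ± 0.09 over all 14 libraries. Within the 10 rats with both regions, the fentanyl effect on Glul in the VTA differed from that in the NAc by -0.18 ± 0.13 (interval -0.46 to 0.10, adjusted p 0.901, edgeR). The mitochondrial share of counts was likewise higher with no overlap, at 21.3% to 26.9% in the 6 fentanyl libraries of the VTA and 17.6% to 21.0% in the 4 saline libraries. With mitochondrial features left out, the Glul difference was 0.35. Whether the Glul levels go with the mitochondrial share was not tested.

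For the other members the fentanyl and saline libraries of the VTA overlapped over both sexes. Gja1 differed by 0.03 ± 0.16, S100b by 0.13 ± 0.12, Slc1a2 by -0.01 ± 0.15, Slc1a3 by -0.17 ± 0.16 and Aqp4 by -0.33 ± 0.25, with adjusted p from 0.702 to 0.989 as the mean over sexes by edgeR. For some genes the 95% interval still held the value called in the NAc as the mean over sexes. That of Gja1, -0.31 to 0.37, held the NAc mean over sexes of 0.34 but not the 0.68 of NAc females. For Gfap the estimate was -0.02 ± 0.55 with an interval of -1.34 to 1.29, so that a change of 2-fold in either direction was not excluded. Aqp4 in females was at 1095 and 1287 CPM in saline and at 812, 868 and 472 CPM in fentanyl rats, with no overlap, and differed by -0.72 ± 0.35 (adjusted p 0.675).

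Gfap varied most among rats. Its coefficient of variation was 29.1% in the NAc and 51.2% in the VTA, where the highest library held 6.64 times the level of the lowest. In fentanyl rats of the VTA it was at 639, 232 and 148 CPM in males 1, 2 and 3 and at 339, 355 and 96.2 CPM in females 1, 2 and 7. Saline males were at 308 and 213 CPM and saline females at 270 and 445 CPM. Gja1 (19.7%), Glul (19.4%) and Aqp4 (18.7%) followed in the NAc, and Aqp4 (34.1%) in the VTA, where S100b varied least, with 13.9%. The VTA library of fentanyl male 1 had the highest level of Gfap, Aqp4 (1770 CPM), S100b (865 CPM) and Gja1 (1251 CPM) of the 10. Without that rat the Gfap difference between the regions, as the mean over the 4 groups, was 1.07 on the log2 scale and still called.

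After the mean of each of the 8 groups was subtracted from log2 CPM, the gene most like Gfap over the 24 libraries was Aqp4, first of the 8859 genes that averaged 10 CPM or more (r = 0.883). The gene most like Aqp4 was likewise Gfap. Gja1 was the next member for Aqp4 (r = 0.742) and for Gfap (r = 0.721). For the other 5 members the most alike gene was no member, with r from 0.809 to 0.845, and the tables give those genes by ID alone. These values are a description; the libraries of a region share their scaling, and 10 rats contribute to both regions.

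Over the libraries of one region, without subtraction, Gfap and Aqp4 correlated in the 10 VTA libraries (Pearson r = 0.81, permutation p 0.00570, adjusted 0.0623 over 42 relations, Spearman rho = 0.624). Without the 2 libraries farthest from the median Gfap level r was 0.292. Leaving these out narrows the range of Gfap, so how far the relation rests on them cannot be told from this drop. In the 14 NAc libraries r was 0.551 (adjusted permutation p 0.128) and rho 0.437, and r was 0.132 without the 2 farthest libraries. As deviations from the group means, r was 0.923 in the VTA and 0.779 in the NAc. Glul and S100b correlated in the 14 NAc libraries, with r = 0.80 (adjusted permutation p 0.0235) and rho = 0.916 (adjusted p 0.000840). Without the 2 libraries farthest from the median r was 0.834. Slc1a3 and Gja1 correlated there with r = 0.782 (adjusted permutation p 0.0235) and rho = 0.675 (adjusted p 0.0805), and r was 0.631 without the 2 farthest libraries. As deviations from the group means, r was 0.535 for Glul and S100b and 0.417 for Slc1a3 and Gja1. All 4 of these genes were called higher after fentanyl as the mean over sexes in the NAc.

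**Figure D5:**
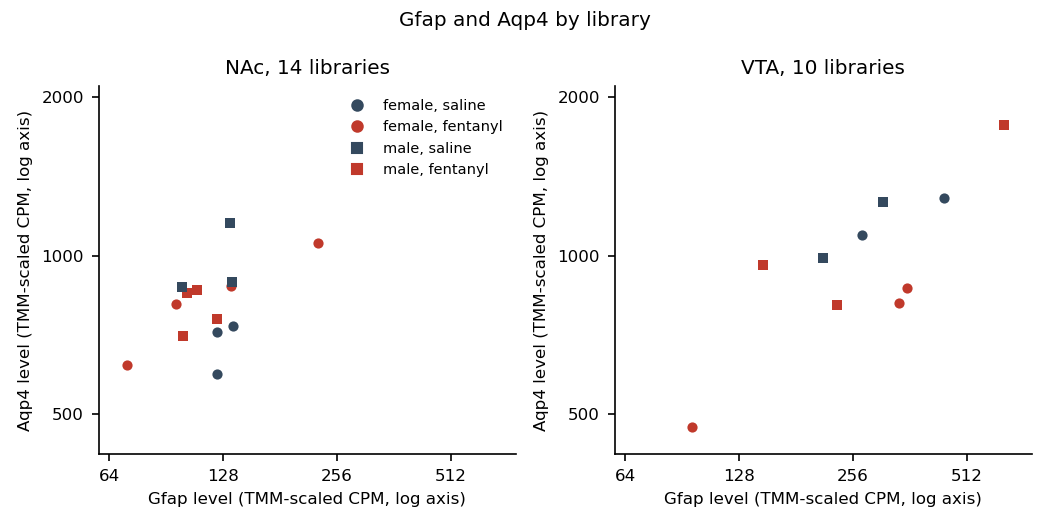
Gfap level against Aqp4 level in each library (TMM-scaled CPM, both axes logarithmic and the same in both panels), NAc on the left and VTA on the right, dark blue saline, red fentanyl, circles females and squares males. In the VTA the library of fentanyl male 1 lies at the upper right and that of fentanyl female 7 at the lower left, and without these 2 libraries r was 0.292.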

How the data were processed

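Per the file headers, each of the 24 deposited tables holds raw counts per Ensembl gene with coordinates and counted length, and no normalization by the authors. Tools named in the submitters' processing notes are STAR 2.5.2b, Subread 1.5.2 with featureCounts, Trimmomatic 0.36 and DESeq2. Build, annotation and strand setting were not given in the sources used here. Without strand, reads of an antisense transcript would be counted with a gene.

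Groups came from the labels. Counts were fitted with edgeR 4.0.16 in R 4.3.3 (TMM, filterByExpr, robust quasi-likelihood F test, two-sided, Benjamini-Hochberg over all genes tested, threshold 0.05). Regions were compared in the 20 libraries of the 10 rats with both, with rat as a block, a pairing given by the animal code; residuals of the same rat correlated at a mean r of 0.0367 (10 pairs, -0.0313 to 0.13), those of different rats at -0.0028 (130 pairs). Fentanyl was tested in 14 NAc or 10 VTA libraries, 4 groups per fit. Standard errors were derived from the F statistic and 95% intervals from its degrees of freedom. Correlations used 100000 permutations. Log2 CPM for likeness had a prior count of 2. The fits were tested on simulated counts with known changes. Alternatives were DESeq2 1.42.0, limma 3.58.1 (voom), other scaling, filters, blocks and leaving out libraries.

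The 7 members are always named. The rule for the members uses no measured value, but the members, the lists and the rules were chosen with earlier results of these data known. The lists of other cell types are by symbol, could not be matched to the IDs and were not analysed here.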

Additional observations from a re-analysis of the deposited data

How the results depend on the processing

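The 28 called values of the 7 genes kept their direction under every alternative run, and 15 of them stayed called in all. These are the called values of 10 comparisons; of the 42 values not called in them, 6 were called in some alternative. For the VTA by sex and the VTA sex difference, counts of calls alone were followed. Levels moved by over 1 SD of their group in 12 of 56 group means on total counts and in 52 of 56 on non-mitochondrial counts, which changes the denominator. Groups held 2 to 4 rats, and no member had fewer than 254 counts in a library; how much depth limits precision was not tested. Leaving out libraries so that a VTA saline group holds 1 rat assumes that it varies like the other groups.

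Within a region, libraries of different groups with the same replicate number correlated at a mean residual r of -0.0115 in the NAc (12 pairs) and 0.000324 in the VTA (10 pairs). Libraries of the same rat reached a mean of only 0.0367. These values therefore cannot tell whether rats with the same number were matched. With the replicate block, 3 members were called in NAc females (Slc1a2 had an adjusted p of 0.112), 2 as the mean over sexes in the NAc (Slc1a3 0.128, S100b 0.138) and 1 for the sex difference of the effect (Gja1 0.0224). The block gave 1431 genes in NAc females, 322 for the NAc mean, 240 for the NAc sex difference, 13 between saline sexes and 1 for the VTA mean. Under the block, values that were not called changed sign for Gfap (0.122), Slc1a2 (0.0389) and Gja1 (0.0862) in NAc males, Gfap (0.2455) as the NAc mean, Glul (-0.0572) and S100b (-0.0313) between saline sexes, and Gfap (0.0086) and Slc1a2 (0.0196) as the VTA mean.

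Members called were 1 in NAc males and 1 in VTA females with no low-count filter; for the NAc sex difference 1 by DESeq2 and 2 with no filter; between saline sexes 1 by DESeq2, 2 with no filter and 2 with those groups alone. All genes called by DESeq2 were 6 in NAc males, 260 for the NAc sex difference, 110 between saline sexes, 37, 7, 39 and 1 in the 4 VTA comparisons and 1 for the region by treatment difference. With no filter they were 46, 388, 210, 418, 114, 499, 109 and 148 in the same order. With the compared groups alone they were 1102 in NAc females, 2 in NAc males, 218 between saline sexes, 5 in VTA females and 2 in VTA males. Gfap turned to 0.0375 in the region by treatment difference without the rat block over 24 libraries and to -0.0888 in NAc females by voom; Gja1 in NAc males was 0.0015 and Aqp4 as the NAc mean -0.0018 with no filter.

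Leaving out 1 rat gave 6 to 7 members called between regions, 5 to 7 in saline rats and 4 to 6 in fentanyl rats. With all 10 rats kept, 62.3%, 45.1% and 54% of genes were called in these comparisons, in the same order. Leaving out 1 library gave 1 to 4 members called in NAc females, 1 to 4 as the NAc mean and 0 to 2 for the NAc sex difference. Genes called were then 755 to 2018 in NAc females, 0 to 2 in NAc males, 315 to 1299 as the NAc mean, 20 to 299 for the sex difference and 10 to 136 between saline sexes. In the VTA they were 0 to 11 in females, 0 to 1 in males, 0 to 2 as the mean and 0 to 5 for the sex difference, and 0 to 1 for the region by treatment difference. Values not called that changed sign when 1 was left out ranged, for Gfap, from -0.32 to 0.26 in NAc females, -0.248 to 0.0434 as the NAc mean, -0.15 to 0.43 for the NAc sex difference, -0.0729 to 0.124 between saline sexes and -0.45 to 0.17 as the VTA mean. Aqp4 ranged from -0.0947 to 0.231 between regions in fentanyl rats and from -0.0533 to 0.0787 as the NAc mean. Slc1a2 ranged from -0.0885 to 0.0829 in NAc males and from -0.164 to 0.0689 as the VTA mean, Gja1 from -0.11 to 0.0861 in NAc males and from -0.11 to 0.13 as the VTA mean. Glul ranged from -0.0765 to 0.208 for the NAc sex difference and from -0.0596 to 0.225 between saline sexes. Causes of these changes were not tested.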
